A study of Homo sapiens with 6 samples.

Results

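Interferon-stimulated genes were followed in MCF10A cells, an immortalised, non-tumorigenic human mammary epithelial line, with and without raised levels of the membrane proteins flotillin 1 and flotillin 2. The 38 genes were chosen by name as known targets of interferon signalling, and all 38 were present among the 52401 genes of the deposited table of mean counts. The control group was a stable line expressing the fluorescent protein mCherry, made with 1 retroviral vector and puromycin selection. The flotillin group was a stable line carrying both Flotillin1-HA and Flotillin2-mCherry, made by infection with 2 such vectors under puromycin and hygromycin. Both lines grew in the same medium with horse serum, insulin, epidermal growth factor, hydrocortisone and cholera toxin. Each group had 3 stranded mRNA libraries. Whether these were grown separately is not said in the labels, and a p-value here covers only the spread between samples, which may be technical. Each group is 1 stable line, and the flotillin level, the number of vectors and the hygromycin selection therefore cannot be told apart. No interferon treatment is named in the labels.

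Interferons are secreted proteins that cells release after sensing foreign or misplaced nucleic acid. Their receptors activate JAK kinases, which phosphorylate STAT proteins, and STAT proteins join IRF9 in a factor that binds interferon-stimulated response elements in promoters. The targets include sensors of viral RNA and DNA, enzymes and membrane proteins that block viral entry or replication, the ubiquitin-like protein ISG15, and chemokines that attract T cells. Many cells, epithelial cells among them, hold a low basal level of these transcripts without infection.

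The letters of the response element were searched as GAAANNGAAA, or TTTCNNTTTC where the match lies on the other strand, in RefSeq promoters of GRCh38.p14 that run from 250 bases before to 50 bases after each start. Promoters were found for 31 of the 38 genes, and 19 of these 31 (61.3%) held the letters, against 4.38% of 27305 genes with a promoter. The windows below are from genes that the deposited table called higher or lower in flotillin cells. They are printed 5′ to 3′ on the strand of the gene, with matched letters in capitals, and show that both kinds carry the element. The first 5 belong to genes that were higher and the last 3 to genes that were lower.
ISG15: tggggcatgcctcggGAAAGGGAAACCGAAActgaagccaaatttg
IFI6: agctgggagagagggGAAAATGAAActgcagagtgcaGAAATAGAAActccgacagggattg
IFI44L: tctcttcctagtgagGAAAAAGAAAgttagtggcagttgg
IFIT3: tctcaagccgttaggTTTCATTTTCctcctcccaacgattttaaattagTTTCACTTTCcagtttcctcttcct
IFIT5: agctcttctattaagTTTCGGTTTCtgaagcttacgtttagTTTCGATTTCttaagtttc
RSAD2: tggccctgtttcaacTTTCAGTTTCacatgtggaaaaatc
CXCL10: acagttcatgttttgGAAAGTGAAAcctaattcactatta
IFITM1: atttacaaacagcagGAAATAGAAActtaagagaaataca

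The ISG15 window is chr1:1013369-1013414 on the plus strand, and its 2 matches overlap. The IFI6 window is chr1:27672261-27672322 on the minus strand, and the IFI44L window is chr1:78620360-78620399 on the plus strand. The IFIT3 window, chr10:89327826-89327899, and the IFIT5 window, chr10:89414508-89414567, are on the plus strand with their matches on the opposite one. RSAD2 has the window chr2:6877617-6877656 on the plus strand, matched on the opposite strand. The CXCL10 window, chr4:76023694-76023733, is on the minus strand, and the IFITM1 window, chr11:313985-314024, on the plus strand. All of these windows lie in front of the start. Some of these promoters hold further matches outside the window or reaching past its end. A match describes the letters only and does not show that a factor binds.

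Of the 31 genes with a promoter, the element letters were in 6 of 8 called higher, 3 of 5 called lower and 10 of 18 not called, and the plot of match positions shows them gene by gene. The letters of a STAT homodimer site, TTCNNNGAA, were in 10 of the 31 (32.3%), against 9.38% of genes. They were in 1 of 8 called higher, 3 of 5 called lower and 6 of 18 not called. No difference between these small sets was tested.

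**Figure D1:**
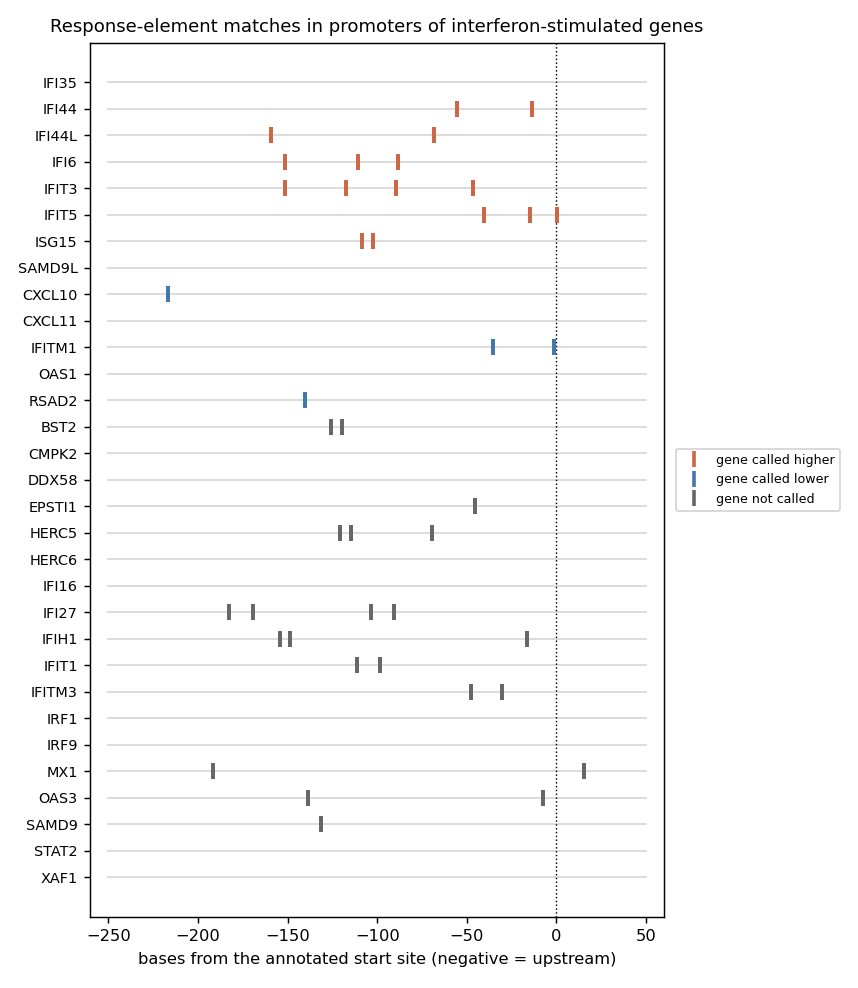
Position of each match to the response element letters, in bases from the annotated start (negative values lie in front of it), with 1 line for each of the 31 genes with a promoter and matches coloured by call. The 19 lines with a mark include genes called higher, genes called lower and genes not called, and matches of alternative promoters of a gene share its line.

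Read counts of the single libraries were worked out from the deposited group means, and levels below are size-factor-normalized counts in library 1, 2 and 3 of each group. The library numbers are names in order of falling size factor and pair nothing across groups. Fold values are ratios of the group means, and the authors' log2 fold changes can be smaller than these. A gene is called higher or lower where the adjusted p in the authors' deposited table is under 0.05. Flotillin 1, one of the transgenes, gave 1898, 1359 and 1166 counts in control and 17243, 14137 and 18932 in flotillin libraries. The authors' deposited table gives flotillin 2 group means of 3727 and 41052, which also fits the labels. The libraries hold 18742058 to 19798439 reads in genes with a solution, all 38 interferon-stimulated genes among them. Library 3 of the control group stood apart, with a log2 correlation of 0.858 and 0.866 to its companions, which correlated at 0.932 over 11376 genes. In the flotillin group, library 3 correlated at 0.921 and 0.903 with the others, which correlated at 0.959. Across the groups, the libraries numbered 3 correlated at 0.832, the highest of the 9 values between groups, and the other 8 lay between 0.716 and 0.796.

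Basal expression ranged widely, from an FPKM of 0.103 to 858 in control cells in the authors' deposited table. FPKM is scaled to transcript length, so that genes can be set side by side. In that table IFITM3 had 858 FPKM in control and 622 in flotillin cells, IFITM2 376 and 566, BST2 135 and 168, IFI16 86.2 and 126, and STAT2 39.5 and 33.7. These were the 5 with the highest FPKM in control cells, and the authors' deposited table of means called none of them. An FPKM under 1 was listed for 9 of the 38 genes in control and for 9 in flotillin cells.

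In all, 9 of the 38 genes were higher in flotillin cells and 5 were lower, and 24 were not called, in the authors' deposited table. Those counts are 36.8% of the genes, against 23.6% of all 19733 genes tested. Higher calls made up 23.7%, against a background of 11.6%, and lower calls 13.2%, against 12.0%. The share of lower calls was thus near the background. The log2 fold change was above 0 for 26 genes and below 0 for 12, and its median was 0.24, against -0.04 for all genes tested and 0.11 for those with a mean of at least 100.

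The authors' deposited FPKM table, made with another pipeline, called 4 higher and 5 lower among 35 of the 38 genes, against 6.93% and 10.0% of 17022 genes. Of its calls, 4 higher and 3 lower were shared with the table of means, and OAS3 and OASL were called lower there only. It missed 7 calls of the table of means, 4 of them in loci that the FPKM table joins over several genes. Such loci hold 16 of the 38 genes, and RSAD2, IFI6 and IFI44L kept their calls in them. A limma fit with Benjamini-Hochberg adjustment to the recovered libraries held 36 of the genes and called 8 higher and 2 lower, against 12.2% and 11.1% of 15910 genes, all of them also called in the table of means. OAS2, OAS1, IFITM1 and RSAD2 missed its threshold. At an adjusted p under 0.01, the authors' deposited table of means kept 7 higher and 2 lower, against 6.67% and 7.91% of genes. In limma, no filter gave 7 higher and 3 lower, against 6.14% and 6.28%, and a mean of at least 100 gave 7 and 0, against 15.1% and 11.5%. The fit with a mean of at least 100 held fewer of the 38 genes, so its counts are not shares of 38. ISG15, OAS2, RSAD2, CXCL10 and CXCL11 were among those it left out. Pseudocounts of 0.5 and 5 and quantile normalization each gave 8 higher and 2 lower. The backgrounds were 12.1% and 11.0%, 12.3% and 11.2%, and 13.4% and 10.9%.

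Without library 3 of both groups, limma called 15 higher and 5 lower, against 23.4% and 20.7% of genes. Against the limma fit to all libraries, the calls gained were CMPK2, DDX58, HERC6, IFI16, IFIT2, OAS2 and SAMD9, higher, and OAS1, OAS3 and IFITM1, lower. RSAD2 was called in neither fit. Leaving out 1 library changed these counts. Without control library 1, limma called 5 genes higher and 1 lower, against 5.11% and 5.81% of all genes. Without control library 2 the counts were 4 and 2, against 4.54% and 5.84%, and without control library 3 they were 13 and 4, against 22.0% and 18.3%. Without flotillin library 1 they were 2 and 1, against 2.21% and 4.04%, and without flotillin library 2 they were 1 and 2, against 2.52% and 4.62%. Without flotillin library 3 limma called 7 higher and 3 lower, against 6.50% and 7.78%. The counts over all genes thus moved with those of the list. SAMD9L and CXCL11 were called in every one of those 6 fits. The calls of IFI44L and IFI6 were lost without flotillin library 1 or 2, that of IFI35 without flotillin library 2, and that of ISG15 without flotillin library 1 or 2 or control library 2. The calls of IFI44 and IFIT3 were lost without control library 1 or 2 or flotillin library 1 or 2, and the call of IFIT5 was lost in those fits and without flotillin library 3. That of CXCL10 was lost without flotillin library 1, and its mean was too low for the fits without control library 1 or 2.

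**Figure D2:**
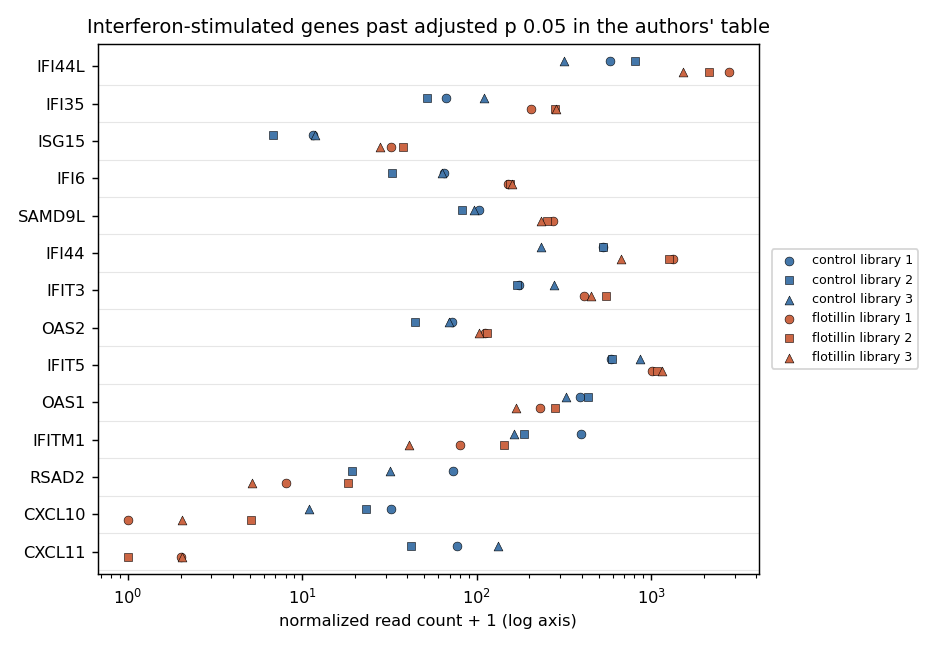
Normalized read count + 1, on a log axis, in each recovered library for the 14 genes called in the authors' deposited table, with control libraries in blue, flotillin libraries in red and a symbol for each library. In each of the 14 genes the 3 control points and the 3 flotillin points do not overlap.

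The groups did not overlap for 16 of the 38 genes, with flotillin libraries above control libraries for 11 and below for 5. Over all genes with a mean of at least 10, 45.2% did not overlap, 24.2% with flotillin above and 21.1% below. Besides the 14 called genes, these were DDX58 and IFI16. Libraries of one group differed from each other across the list. Control library 2 was the lowest of its group for 23 of the 38 genes, against 28.3% of all genes. Flotillin library 3 was the lowest of its group for 21 of the 38, against 39.1%, and flotillin library 2 the highest for 19, against 35.4%. Library 3 stood above the mean of its companions in both groups for 13 genes and below it in both for 11. It moved in opposite directions for 14. In bulk RNA, fewer cells that express a gene and less RNA of it per cell cannot be told apart.

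Of the 4 signalling and transcription factor genes of the list, none was called. STAT2, a transcription factor of the type I interferon response, had 3523, 4128 and 2150 counts in control and 3720, 4111 and 2014 in flotillin libraries. The group means were 3267 ± 1013 and 3282 ± 1115 (SD, n = 3), and the log2 fold change was 0.01 in the authors' deposited table (adjusted p = 0.992). The 2 groups overlapped along their whole range, with library 3 lowest in each. IRF9, which carries DNA binding in the complex with STAT2, averaged 486 ± 91.3 counts in control and 386 ± 112 in flotillin libraries (adjusted p = 0.491 in the authors' deposited table). IRF1 averaged 808 ± 287 and 821 ± 323 counts, and IRF7, which amplifies type I interferon production, 37.0 ± 22.5 and 37.1 ± 7.41 counts.

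None of the 3 nucleic acid sensors was called, although the groups of DDX58 and IFI16 did not overlap. IFI16, which binds DNA, had 4497, 5267 and 4626 counts in control and 7409, 8194 and 5798 in flotillin libraries. Its means were 4797 ± 412 and 7134 ± 1222 (SD, n = 3), a ratio of 1.49, and the authors' deposited table gave adjusted p = 0.0656. All flotillin libraries lay above all control libraries, and flotillin library 3 lay nearest to them. Over the alternatives tried for IFI16, limma with Benjamini-Hochberg adjustment or the FPKM table gave adjusted p-values from 0.0129 to 0.213, the lowest without library 3 of both groups. DDX58, which encodes the RNA sensor RIG-I, averaged 403 ± 91.0 counts in control and 596 ± 114 in flotillin libraries (adjusted p = 0.145 in the authors' deposited table). IFIH1, which encodes the long RNA sensor MDA5, averaged 434 ± 101 and 311 ± 69.1 counts, with overlapping groups (adjusted p = 0.258 in the authors' deposited table).

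The IFIT genes encode proteins that bind viral RNA and restrain its translation, and 2 of the 4 were higher. IFIT3 (chromosome 10, GRCh37, in a locus from 90973326 to 91174314 that holds 7 genes) had 173, 169 and 276 counts in control and 411, 550 and 452 in flotillin libraries. Its means were 206 ± 60.9 and 471 ± 71.5 (SD, n = 3), which is 2.29-fold higher, with a log2 fold change of 1.14 in the authors' deposited table (adjusted p = 0.00126). The groups did not overlap, and control library 3 lay nearest to the flotillin libraries. In the alternatives, limma with Benjamini-Hochberg adjustment and the FPKM table gave IFIT3 adjusted p-values from 0.00134 to 0.591, the highest in the FPKM table.

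IFIT5 (chromosome 10, 91174343 to 91180758) had 587, 597 and 855 counts in control and 1014, 1080 and 1148 in flotillin libraries. The means of 680 ± 152 and 1081 ± 67.1 (SD, n = 3) differ 1.59-fold, with a log2 fold change of 0.65 in the authors' deposited table (adjusted p = 0.0431). All flotillin libraries were above all control libraries, again with control library 3 the nearest. Limma with Benjamini-Hochberg adjustment and the FPKM table gave IFIT5 adjusted p-values from 0.00608 to 0.201. IFIT1 averaged 97.5 ± 72.6 counts in control and 128 ± 39.7 in flotillin libraries, and IFIT2 133 ± 46.9 and 222 ± 68.4. Neither was called, and the groups overlapped for both.

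The OAS genes encode synthetases whose products activate RNase L, and 1 was called higher and 1 lower. OAS2 (chromosome 12, 113416274 to 113449528) had 71.2, 43.0 and 68.1 counts in control and 111, 113 and 102 in flotillin libraries. Its means of 60.8 ± 15.4 and 109 ± 6.17 (SD, n = 3) differ 1.79-fold, with a log2 fold change of 0.80 in the authors' deposited table (adjusted p = 0.0495). OAS2 was higher in every flotillin library, and the flotillin libraries lay close together. This p is just under the threshold. Limma with Benjamini-Hochberg adjustment and the FPKM table gave OAS2 adjusted p-values from 0.0330 to 0.187, with 10 of 13 alternatives past 0.05.

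OAS1, a neighbour of OAS2 (chromosome 12, 113344739 to 113369794), was lower, at 390, 435 and 323 counts in control and 228, 280 and 168 in flotillin libraries. Its means of 383 ± 56.5 and 225 ± 56.1 (SD, n = 3) differ 1.70-fold, with a log2 fold change of -0.74 in the authors' deposited table (adjusted p = 0.0461). The groups did not overlap, and library 3 was the lowest of each. Limma with Benjamini-Hochberg adjustment and the FPKM table gave OAS1 adjusted p-values from 0.0321 to 0.174, with 11 of 14 alternatives past 0.05. OAS3, the third synthetase, had 1441, 1750 and 2343 counts in control and 736, 588 and 1927 in flotillin libraries, so that flotillin library 3 lay among the control libraries. It was not called in the authors' deposited table of means (adjusted p = 0.225). Limma with Benjamini-Hochberg adjustment called OAS3 lower without library 3 of both groups (adjusted p = 0.00107), and the authors' deposited FPKM table called it lower too (q = 0.0176). OASL, which lacks synthetase activity, averaged 56.0 ± 35.3 counts in control and 23.7 ± 6.94 in flotillin libraries and overlapped.

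Of the 6 MX and other nucleotide-acting effectors, SAMD9L was higher and RSAD2 was lower. SAMD9L, which restrains poxvirus replication (chromosome 7, 92759368 to 92777682), had 102, 81.3 and 95.8 counts in control and 272, 252 and 233 in flotillin libraries. Its means of 92.9 ± 10.4 and 253 ± 19.3 (SD, n = 3) differ 2.72-fold, with a log2 fold change of 1.40 in the authors' deposited table (adjusted p = 1.28e-06). Both groups were tight and far apart, and limma with Benjamini-Hochberg adjustment gave SAMD9L an adjusted p of 0.00647, within a range of 0.00175 to 0.164 over the alternatives. The highest of these came from the FPKM table.

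RSAD2 encodes viperin, which makes a chain-terminating nucleotide (chromosome 2, in a locus from 6980701 to 7594686 that holds 11 genes). It had 72.1, 18.2 and 30.6 counts in control and 7.0, 17.2 and 4.11 in flotillin libraries. The means of 40.3 ± 28.2 and 9.45 ± 6.89 (SD, n = 3) differ 4.27-fold, with a log2 fold change of -1.69 in the authors' deposited table (adjusted p = 0.0195). Control library 2 and flotillin library 2 nearly met, and control library 1 was far above the others. Limma with Benjamini-Hochberg adjustment and the FPKM table gave RSAD2 adjusted p-values from 0.0242 to 0.183, with 11 of 13 alternatives past 0.05. CMPK2, which lies beside RSAD2 and encodes a nucleotide kinase, averaged 13.3 ± 10.0 counts in control and 24 ± 6.22 in flotillin libraries. MX1, a GTPase that blocks incoming viral particles, averaged 23.8 ± 7.48 and 30.1 ± 2.39 counts, MX2 9.91 ± 6.24 and 6.77 ± 4.11, and SAMD9 1115 ± 477 and 1463 ± 213. The groups overlapped for each of these 4 genes.

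The membrane effectors include the most abundant transcripts of the list, and IFITM1 alone of the 4 was called. The IFITM proteins hinder the fusion of viruses with cell membranes. IFITM1 (chromosome 11, 311317 to 315271) had 395, 186 and 162 counts in control and 79.0, 143 and 40.1 in flotillin libraries. Its means of 248 ± 128 and 87.3 ± 51.9 (SD, n = 3) differ 2.84-fold, with a log2 fold change of -1.34 in the authors' deposited table (adjusted p = 0.0211). The groups did not overlap, but flotillin library 2 lay just under control library 3. Adjusted p-values of IFITM1 ran from 0.000804 to 0.183 over the alternatives, limma with Benjamini-Hochberg adjustment and the FPKM table, with 11 of 14 alternatives past 0.05. IFITM1, IFITM2 and IFITM3 are close copies of each other, so reads may have been assigned to the wrong one, and their separate counts are uncertain.

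IFITM3 (chromosome 11, 318653 to 325626) had 13210, 6041 and 9567 counts in control and 7502, 9049 and 3961 in flotillin libraries. Its means were 9606 ± 3585 and 6837 ± 2608 (SD, n = 3), and the authors' deposited table gave a log2 fold change of -0.46 (adjusted p = 0.399). IFITM2 (chromosome 11, 308107 to 309409) had 6901, 3019 and 4949 counts in control and 8435, 9897 and 4483 in flotillin libraries. In both genes the order of the libraries within a group was the same, with control library 2 and flotillin library 3 lowest, and the groups overlapped. The IFITM2 means were 4956 ± 1941 and 7605 ± 2800 (SD, n = 3), with a log2 fold change of 0.57 in the authors' deposited table (adjusted p = 0.275).

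The ratio between these neighbours, singled out after its values were seen, varied less within a group than either gene. The log2 ratio of IFITM2 to IFITM3 was -0.94, -1.0 and -0.95 in control and 0.17, 0.13 and 0.18 in flotillin libraries. The group means of this ratio, -0.96 ± 0.03 and 0.16 ± 0.03 (SD, n = 3), differ by 1.12 on the log2 scale. By normalized count, which is not scaled to transcript length, IFITM3 was above IFITM2 in all control libraries and below it in all flotillin libraries. By FPKM, IFITM3 stayed above IFITM2 in both groups, at 858 against 376 in control and 622 against 566 in flotillin cells. An exact two-sided permutation test gave p = 0.1, the smallest that 3 against 3 allows, and 0.2 after adjustment over the 18 neighbouring pairs compared. A ratio shows only that the genes changed unequally, and the uncertain assignment of reads between these copies applies here as well.

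BST2, or tetherin, which holds budding viruses on the cell surface (chromosome 19, 17502497 to 17516457), had 2092, 1049 and 2387 counts in control and 2569, 2504 and 2336 in flotillin libraries. Its means were 1843 ± 703 and 2470 ± 120 (SD, n = 3), and the authors' deposited table gave a log2 fold change of 0.40 (adjusted p = 0.391). The groups overlapped through control library 3, and control library 2 was the lowest.

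ISG15 is a ubiquitin-like modifier, and 1 of the 4 genes of its system was called, ISG15 itself (chromosome 1, 948803 to 949920). It had 10.4, 5.74 and 10.9 counts in control and 31.0, 36.5 and 26.7 in flotillin libraries, from 6 to 36 reads per library. The means of 9.01 ± 2.84 and 31.4 ± 4.89 (SD, n = 3) differ 3.48-fold, with a log2 fold change of 1.59 in the authors' deposited table (adjusted p = 0.00557). The groups lay well apart at a low level, and limma with Benjamini-Hochberg adjustment and the FPKM table gave ISG15 adjusted p-values from 0.00321 to 0.0892. The ligase HERC5 averaged 54.8 ± 11.7 counts in control and 60.4 ± 25.1 in flotillin libraries, and its relative HERC6 319 ± 232 and 326 ± 45.6. The protease USP18, which removes ISG15 and damps the receptor, averaged 99.9 ± 69.5 and 111 ± 38 counts. None of the 3 was called.

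Both chemokines were lower, and they ended near 0. CXCL10 and CXCL11 attract T cells through the receptor CXCR3 and lie in 1 locus of 4 genes (chromosome 4, 76932337 to 77033955). CXCL11 had 75.9, 41.1 and 131 counts in control and 1.00, 0 and 1.03 in flotillin libraries, with means of 82.8 ± 45.5 and 0.676 ± 0.586 (SD, n = 3). These values rest on 256 reads in control and 2 in flotillin libraries, a ratio of 122 with a 95% counting interval of 33.3 to 1010. The authors' deposited table gave CXCL11 a log2 fold change of -4.88 (adjusted p = 8.58e-14). Every control library was far above every flotillin library. Adjusted p-values of CXCL11 ran from 3.20e-05 to 0.0797 over the alternatives, limma with Benjamini-Hochberg adjustment and the FPKM table, the highest in the FPKM table, where its locus is joined.

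CXCL10 had 31.3, 22.0 and 9.87 counts in control and 0, 4.05 and 1.03 in flotillin libraries, with means of 21.1 ± 10.7 and 1.69 ± 2.11 (SD, n = 3). It rests on 66 reads in control and 5 in flotillin libraries, a ratio of 12.6 with a 95% counting interval of 5.12 to 39.9. The groups did not overlap, and control library 3 was the lowest control where it had been the highest for CXCL11. The authors' deposited table gave CXCL10 a log2 fold change of -2.55 (adjusted p = 0.00121). Adjusted p-values of CXCL10 ran from 0.00648 to 0.166 over the alternatives, limma with Benjamini-Hochberg adjustment and the FPKM table. The intervals cover counting error only, since reads without molecular identifiers are not independent molecules.

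The remaining 7 interferon-induced genes held 4 of the 9 higher calls. IFI44L and IFI44 lie side by side on chromosome 1 in a joined locus of 4 genes (79034380 to 79129763), and their products are cytoplasmic antiviral proteins. IFI44L had 579, 807 and 313 counts in control and 2778, 2127 and 1511 in flotillin libraries. Its means of 566 ± 247 and 2139 ± 634 (SD, n = 3) differ 3.78-fold, with a log2 fold change of 1.79 in the authors' deposited table (adjusted p = 3.67e-05). Library 3 was the lowest of both groups, and the groups did not overlap. Adjusted p-values of IFI44L ran from 0.000315 to 0.0539 over the alternatives, limma with Benjamini-Hochberg adjustment and the FPKM table.

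IFI44 had 527, 527 and 231 counts in control and 1323, 1256 and 672 in flotillin libraries. Its means of 428 ± 171 and 1084 ± 358 (SD, n = 3) differ 2.53-fold, with a log2 fold change of 1.24 in the authors' deposited table (adjusted p = 0.00849). Library 3 was lowest in both groups here as well, and flotillin library 3 lay nearest to the control libraries. Adjusted p-values of IFI44 ran from 0.000629 to 0.144 over the alternatives, limma with Benjamini-Hochberg adjustment and the FPKM table, the lowest without library 3 of both groups.

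IFI35, a partner of the interferon-induced protein NMI (chromosome 17, 41158769 to 41166475), had 65.5, 50.7 and 110 counts in control and 204, 281 and 282 in flotillin libraries. Its means of 75.2 ± 30.6 and 255 ± 44.6 (SD, n = 3) differ 3.40-fold, with a log2 fold change of 1.66 in the authors' deposited table (adjusted p = 3.72e-05). All flotillin libraries were above all control libraries, and limma with Benjamini-Hochberg adjustment and the FPKM table gave IFI35 adjusted p-values from 0.000742 to 0.0568.

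IFI6, a small mitochondrial and endoplasmic reticulum protein (chromosome 1, in a locus of 2 genes from 27992572 to 27998729), had 63.6, 31.6 and 62.2 counts in control and 150, 153 and 158 in flotillin libraries. Its means of 52.4 ± 18.1 and 154 ± 4.21 (SD, n = 3) differ 2.93-fold, with a log2 fold change of 1.47 in the authors' deposited table (adjusted p = 0.000215). The flotillin libraries were nearly equal, and control library 2 was the lowest. Adjusted p-values of IFI6 ran from 0.000804 to 0.0662 over the alternatives, limma with Benjamini-Hochberg adjustment and the FPKM table. The related IFI27 averaged 16.2 ± 13.5 counts in control and 14.8 ± 5.05 in flotillin libraries, XAF1 14.7 ± 5.22 and 16.8 ± 5.75, and EPSTI1 4.24 ± 4.46 and 6.08 ± 0.970. These 3 sat at a low level in both lines and were not called.

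**Figure D3:**
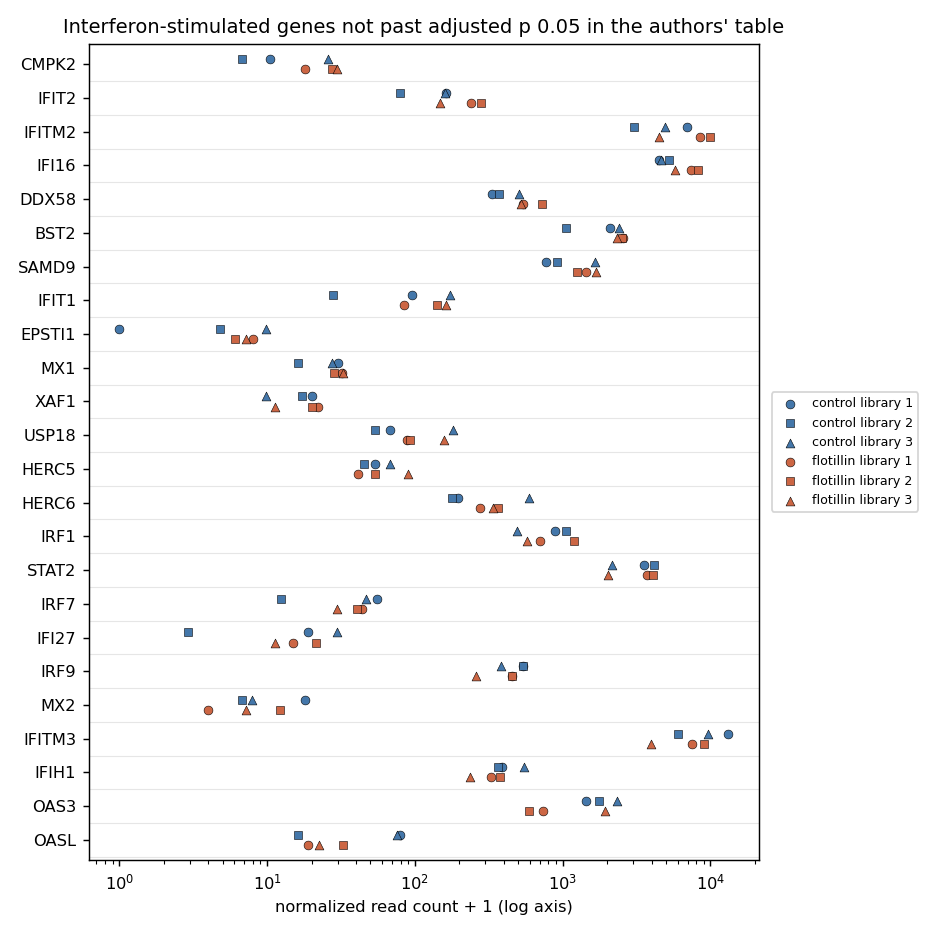
Normalized read count + 1, on a log axis, in each recovered library for the 24 genes not called, with control libraries in blue, flotillin libraries in red and a symbol for each library. The groups of 22 of them overlap, and those of DDX58 and IFI16 do not.

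**Figure D4:**
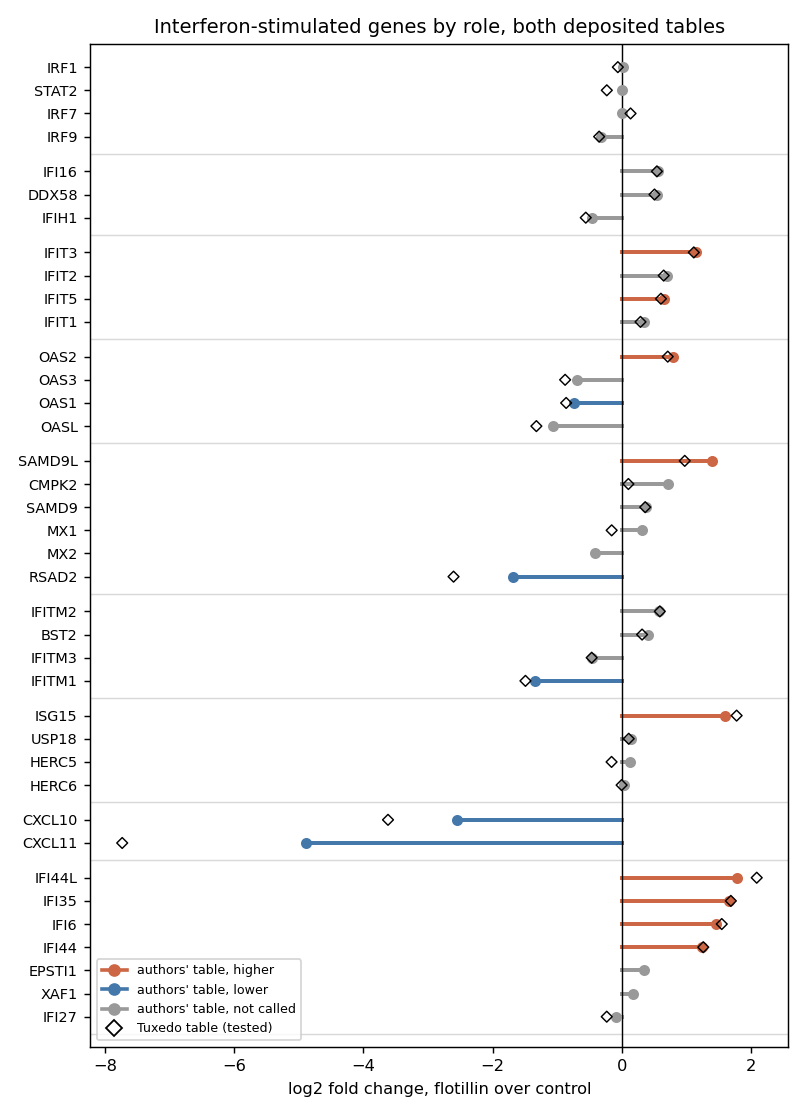
Log2 fold change of flotillin over control for the 38 genes, grouped by role, with bars and dots for the authors' deposited table of means, coloured by call, and open diamonds for the authors' FPKM table where it tested the gene. The chemokines stand lowest by the table of means, at -4.88 and -2.55, and the 4 called genes of the last group lie between 1.24 and 1.79.

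Genes that lie side by side did not share one direction everywhere. With neighbours taken as at most 200000 bases apart in the RefSeq order, 22 of the 38 genes formed 9 clusters. A call was made in 7 clusters, and the OAS1, OAS3 and OAS2 cluster was the only one with calls in both directions. Its calls, of OAS1 and OAS2, were just under the threshold and were lost in limma with all libraries. The log2 ratio of OAS1 to OAS2 was 2.44, 3.31 and 2.23 in control and 1.03, 1.29 and 0.71 in flotillin libraries, a difference of -1.64 (exact permutation p = 0.1, two-sided, n = 3 per group). For CMPK2 over RSAD2 it was -2.80, -1.51 and -0.30 in control and 1.17, 0.59 and 2.54 in flotillin libraries, so that the order of the pair turned in every library. That difference was 2.97 (exact permutation p = 0.1). Of the 18 pairs, 9 reached this smallest possible p, and the adjusted p was 0.2 for each of them.

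The rest of the pathway was read from 5 lists with 97 genes, of which 87 were tested. Of these, 11 were higher and 11 were lower in the authors' deposited table, or 25.3% called, against 23.6% of all genes. Of 10 interferon genes, 7 had 0 reads in all 6 libraries, IFNB1 among them, which allows up to 3 reads in a library of 18742058 or more. IFNE, an epithelial type I interferon, was the only one tested, at 18, 20.1 and 6.91 counts in control and 10.0, 12.2 and 13.4 in flotillin libraries (adjusted p = 0.737 in the authors' deposited table).

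Among 11 receptor, JAK and STAT genes, the receptor genes are described here, and IFNAR2 was lower. IFNAR2, a chain of the type I interferon receptor, had 737, 880 and 709 counts in control and 472, 533 and 545 in flotillin libraries, 1.5-fold lower (log2 fold change -0.57 and adjusted p = 0.0458 in the authors' deposited table). The authors' FPKM table did not call IFNAR2 (q = 0.574), in a locus that it joins over 4 genes. The limma p of IFNAR2, with Benjamini-Hochberg adjustment, was 0.0534 with all libraries and 0.0211 without library 3 of both groups. The other receptor chains were not called in the authors' deposited table of means. IFNAR1 averaged 2419 ± 115 counts in control and 2337 ± 82.0 in flotillin libraries, IFNGR2 3406 ± 557 and 3045 ± 264, IL10RB 1387 ± 225 and 1073 ± 48.1, and IFNLR1 99.6 ± 30.2 and 47.0 ± 21.7. IFNGR1 had 10148, 12974 and 3681 counts in control and 4209, 6143 and 2889 in flotillin libraries, with library 3 the lowest of both. It was not called in the authors' deposited table of means (adjusted p = 0.101) but was lower in their FPKM table (q = 0.00265). Limma with Benjamini-Hochberg adjustment gave IFNGR1 an adjusted p of 0.212 with all libraries and 0.00316 without library 3 of both groups.

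Of 10 negative regulators, PIAS1, a SUMO ligase that inhibits STAT signalling, was 1.90-fold higher (adjusted p = 0.00859), and IRF2, which competes with IRF1 for promoters, was 1.65-fold higher (adjusted p = 0.0168 in the authors' deposited table). These 2 calls are 20% of the regulators, against 11.6% of all genes tested called higher. Of 20 genes of nucleic acid sensing, 1 was higher and 3 were lower. Those are 5% and 15% of the list, against 11.6% and 12.0% of all genes tested. IRF5, an interferon gene activator, had 747, 599 and 407 counts in control and 109, 148 and 115 in flotillin libraries, 4.71-fold lower (adjusted p = 3.35e-10 in the authors' deposited table). TMEM173, which encodes the DNA pathway adaptor STING, had 3960, 3928 and 3252 counts in control and 2273, 2266 and 1880 in flotillin libraries, 1.74-fold lower (adjusted p = 0.00364 in the authors' deposited table). The RNA receptor gene TLR3 was 1.61-fold lower (adjusted p = 0.0191) and the nucleotide hydrolase gene SAMHD1 1.85-fold higher (adjusted p = 0.0448) by the authors' deposited table. The SAMHD1 call was lost in limma with Benjamini-Hochberg adjustment (adjusted p = 0.0580, or 0.00568 without library 3 of both groups) and in the authors' deposited FPKM table (q = 0.124). That FPKM table also called neither TLR3 (q = 0.182) nor IRF2 (q = 0.0870).

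Of a further 46 interferon-induced genes, 45 were tested, and the authors' deposited table of means called 7 higher and 7 lower, or 15.6% each, against 11.6% and 12.0% of all genes. Their FPKM table tested 43 and called 3 higher and 9 lower, against 6.93% and 10.0% of all genes. Limma held 44 and called 7 higher and 5 lower, against 12.2% and 11.1%. UBE2L6, the enzyme that passes ISG15 to its targets, had 401, 292 and 261 counts in control and 1156, 1195 and 842 in flotillin libraries, 3.35-fold higher (adjusted p = 8.75e-08 in the authors' deposited table). HSH2D, an adaptor protein, had 161, 137 and 363 counts in control and 7.0, 12.2 and 7.2 in flotillin libraries, 25.1-fold lower (adjusted p = 8.40e-17 in the authors' deposited table). IFI30, a lysosomal thiol reductase, was 5.31-fold lower at 1743, 1209 and 1787 counts against 253, 317 and 323. By the ratio of group means, the death ligand gene TNFSF10 was 5.95-fold lower and the phosphorylase gene TYMP 5.90-fold lower. The authors' deposited table gave them log2 fold changes of -2.22 and -2.20 (adjusted p = 0.000168 and 0.000301), and the authors' FPKM table did not call TYMP (q = 0.0536).

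**Figure D5:**
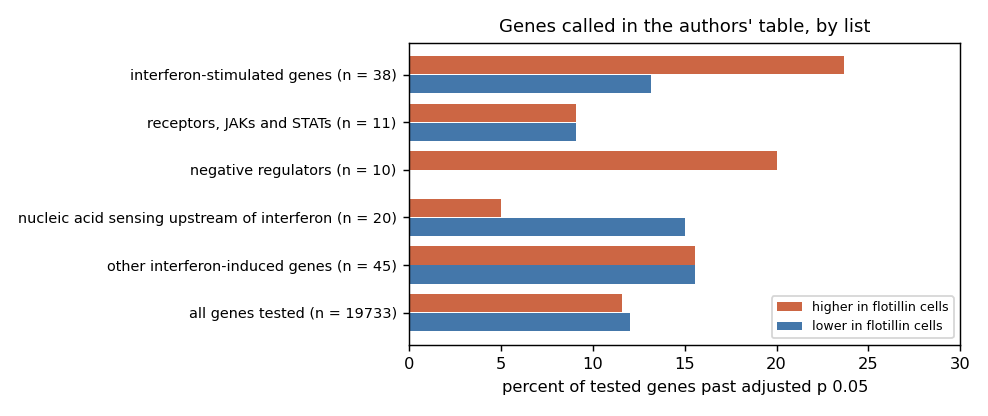
Percent of tested genes called higher or lower in the authors' deposited table, for the 38 interferon-stimulated genes, the 4 pathway lists with more than 1 gene tested, and all genes tested. Higher calls make up 23.7% of the interferon-stimulated genes and 11.6% of all genes, and lower calls 13.2% and 12.0%.

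Markers of cell types were read beside these genes. Of all genes tested, 11.6% were called higher and 12.0% lower. The markers tested were 8 mammary epithelial, 4 leukocyte, 5 fibroblast and 2 endothelial genes. Of 8 mammary epithelial markers 5 were lower in flotillin cells, and the sum of their means in the authors' deposited table was 93842 in control and 77033 in flotillin cells. KRT5, the most abundant, had means of 48381 and 67351 there and no library values. Without it, the sum of the other 7 was 33890 to 59233 counts in control and 8618 to 10652 in flotillin libraries. CDH1, EPCAM and TP63 were among the lower ones, and KRT18 and KRT5 were not called. Among 10 leukocyte markers, CD3E, MS4A1 and CLEC4C, a marker of plasmacytoid dendritic cells, were at 0 in both groups. The leukocyte sums were 862 to 2622 counts in control and 1161 to 1720 in flotillin libraries, with CD14 and ITGAM lower. Of 8 fibroblast markers, DCN, LUM and PDGFRB were higher, COL1A1 was lower and THY1 was at 0. DCN, with means of 4659 and 42467 in the authors' deposited table, has no library values, and the other 7 summed to 217 to 409 counts in control and 206 to 253 in flotillin libraries. No endothelial marker was called among 4 matched, with sums of 271 to 939 and 417 to 798 counts. The part of these shifts in the results for interferon-stimulated genes was not tested.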

How the data were processed

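RNA from 3 control and 3 flotillin samples was sequenced, and samples were grouped by their titles. The submitters' processing notes name bcl2fastq, DESeq2 1.18.1, HTSeq 0.9.1, HISAT2 2.1.0 and the genome build GRCh37. The deposited table of means holds, per its values, a signal column per group (the mean of size-factor-normalized counts), with the authors' log2 fold changes, p-values and adjusted p-values, per the file headers. The second deposited table, of the Tuxedo pipeline by its name, holds the authors' FPKM, log2 fold changes, test score, p-values and q-values, per the file headers. Loci are its own, counted from 1, and may join genes.

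Each mean was deposited with 15 significant digits, so whole reads per library could be solved from it, given size factors fitted to the steps between low values. A single solution was found for 99.7% of means in each group. Of 2000 altered means per group 0 had one. The altered means were taken from genes with a mean under 2000, so that check does not cover higher means. The 101 genes without a solution held 21.6% of control and 19.8% of flotillin normalized counts.

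The authors' adjusted p under 0.05 was the main result, since the files hold means and not counts. As an alternative, limma 3.58.1 in R 4.3.3 (trend, robust, Benjamini-Hochberg) was fitted to log2(normalized count + 1) of all 15910 genes with a mean of at least 10. Its fold changes are on that scale, which understates the change of low genes. Both steps were tested on simulated data, the recovery of reads without the highest means. SDs are over 3 recovered libraries. Other pseudocounts, filters, scaling, the second table and leaving out libraries were tried. Neighbouring pairs were compared by exact permutation. Every gene of the list is accounted for, and full values are given for the called genes and the 5 with the highest control FPKM. Pathway genes named are the called ones, up to 5 per list by size of change, with IFNB1 and the receptors. One gene each of a pathway list and a marker list is not reported here. The gene list, pathway lists and rules were chosen with earlier results of these data known. The pathway-list alternatives were added after seeing the data. Identifiers shared by both tables number 52313 of 52401.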

Additional observations from a re-analysis of the deposited data

How the results depend on the processing

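None of the 14 called interferon-stimulated genes changed the sign of its log2 fold change under an alternative tried, and STAT2, not called, ranged from -0.28 to 0.31. The 9 higher genes became 4 in the Tuxedo table, 15 without library 3 of both groups (8 in limma with all libraries), and 1 to 13 when a single recovered library was left out. Over all genes, the share called higher moved as well, from 11.6% to 6.93% in the Tuxedo table. It was 23.4% without library 3 of both groups (12.2% in limma with all libraries) and 2.21% to 22.0% with a single library left out. The 5 lower genes became 2 under limma, with a pseudocount of 0.5 or 5, with quantile normalization and at an adjusted p under 0.01. They became 3 without a filter, 1 to 4 with a single library left out, and 0 in limma with a mean of at least 100, a fit that left out CXCL10, CXCL11 and RSAD2. Over all genes, 12.0% were called lower in the authors' table of means, 7.91% at an adjusted p under 0.01 and 11.1% in limma. That share was 6.28% without a filter, 11.5% with a mean of at least 100, and 4.04% to 18.3% with a single library left out. For the list, the median log2 fold change of 0.24 was 0.11 in the Tuxedo table and 0.38 in limma. Other limma fits gave 0.53 with a mean of at least 100, 0.53 with quantile normalization, 0.69 without library 3 of both groups, and between 0.19 and 0.70 with a single library left out (0.52 without control library 1). The median over all genes shifted too, from -0.04 in the authors' table of means to 0.04 in limma and 0.07 with quantile normalization. In the authors' table it was 0.11 for genes with a mean of at least 100. The 11 higher and 11 lower pathway genes became 4 and 13 of 82 in the Tuxedo table, against 6.93% and 10.0% of all genes. They became 10 and 8 of 83 in limma, against 12.2% and 11.1%. Without library 3 of both groups they became 17 and 16 of 84, against 23.4% and 20.7%. The letters of the STAT site stood in a promoter of 32.3% of the 31 genes, against 9.38% of all genes with a promoter. For the response element these shares were 61.3% and 4.38%. With a library left out, the smaller group is assumed to vary like the other. No paired analysis was possible because the recovered libraries carry no replicate numbers. ISG15, CXCL10 and CXCL11 rest on few reads, which limits their precision.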
